A study of Mus musculus with 16 samples.

Results

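The genes described here are the 13 mRNAs coded by mitochondrial DNA (mtDNA) and 78 nuclear genes named for the mitochondrial ribosome (mitoribosome), measured by RNA sequencing in gastrocnemius muscle. They were taken by name from the count table, as the rows of the 13 mtDNA-coded proteins and the symbols that begin with Mrpl or Mrps and a number. This gave 49 genes named for the large subunit (Mrpl) and 29 for the small subunit (Mrps). Whether each protein, such as that of Mrps36, is part of the mitoribosome was not checked. They are 91 of the 35415 genes in the table, and 0 other rows came from the mitochondrial genome, so its ribosomal and transfer RNAs are not analysed here. All 91 passed the filter on low counts that left 14749 genes for testing.

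The samples came from 16 wild-type male BALB/c mice, bought at 8 weeks of age, in 4 groups of 4. CT26 cells, a colon carcinoma line of BALB/c origin, were injected under the skin of the left dorsolateral hind limb region of the mice of the T (tumor) and TE (tumor and exercise) groups, whereas C (control) and E (exercise) mice received saline at that site under the same anesthesia. Training of the E and TE mice was treadmill running at a speed of 14 m/min, in daily bouts of 60 min on 6 days of each of the 4 weeks after the injection. The untrained C and T mice spent 10 to 15 min a day on a treadmill that did not move. The 4 sequenced mice of a group were drawn at random from those of the study, and p-values measure the spread between mice. RNA came from bulk tissue, in which fewer cells of a type and less RNA per cell cannot be told apart.

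Mitochondria make ATP through the respiratory chain, whose complexes hold proteins coded in the nucleus beside a small set coded by mtDNA. Both strands of mtDNA are transcribed as long precursors that are cut into single mRNAs. These are translated by the mitoribosome, whose RNAs come from mtDNA and whose proteins are coded in the nucleus, made in the cytosol and imported. Skeletal muscle is known to adapt its mitochondrial content to endurance training.

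Library totals ranged from 35628211 to 37635741 counts, and 3 counts equal at most 0.0842 CPM (counts scaled to the library total). The 10 skeletal muscle fiber markers, such as Ckm and Acta1, summed to 114256 to 131328 CPM over the 16 libraries. The 11 lymphoid markers summed to 48.6 CPM in C3, 44.1 CPM in E1 and 118 CPM in TE4, but to 4.51 to 25.2 CPM in the other libraries, and fits without these 3 libraries are given below for both gene sets. The 8 neutrophil markers summed to 7.89 to 42.0 CPM in the tumor groups and 0.622 to 3.82 CPM in the others, with Elane at 0 in every library, and the 5 erythroid markers to 464 to 799 CPM and 227 to 365 CPM. The 6 tendon and fibroblast markers summed to 925 to 1177 CPM in E and 533 to 850.1 CPM in the other groups.

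Counts of mtDNA-coded mRNAs rest on reads that can be placed on the mitochondrial genome, and parts of that genome also exist as copies in nuclear DNA. In GRCm39, the build named for these files, the segment chr1:24650616-24655269 (minus strand) copies bases 6390 to 11042 of the mitochondrial genome. It differs by 2 substitutions, counted from base 1 of the mitochondrial genome as A6393T in COX1 and T9461C in ND3, and by 1 gap base, an identity of 99.9%. Another long copy at chr2:22477300-22480546 (minus strand) has an identity of 97.4%. The sequences below, from GRCm39, show how little distinguishes such reads. The ATP8 reading frame, which codes a small subunit of ATP synthase, is at chrM:7766-7969 (plus strand), and capitals mark the 43 bases it shares with the reading frame of ATP6. Its copy at chr1:24653690-24653893 (minus strand) has 0 differences over 204 bases.
ATP8 on chrM: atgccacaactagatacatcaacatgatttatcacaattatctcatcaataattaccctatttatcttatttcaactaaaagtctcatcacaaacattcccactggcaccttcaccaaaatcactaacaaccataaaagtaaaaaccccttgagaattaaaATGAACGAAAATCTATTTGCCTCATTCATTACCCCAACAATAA
The opening 150 bases of COX2, a core subunit of cytochrome c oxidase, lie at chrM:7013-7162 (plus strand). The copy at chr1:24654497-24654646 (minus strand) is identical, and the copy at chr2:22477825-22477974 (minus strand) has 2 differences, which stand in capitals.
COX2 on chrM: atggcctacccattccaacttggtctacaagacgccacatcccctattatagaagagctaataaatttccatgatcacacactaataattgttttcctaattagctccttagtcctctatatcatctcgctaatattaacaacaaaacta
COX2 copy on chr2: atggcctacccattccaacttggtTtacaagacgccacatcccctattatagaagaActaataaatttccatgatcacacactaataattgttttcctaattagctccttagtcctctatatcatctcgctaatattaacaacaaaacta
The opening 60 bases of ND3, a subunit of complex I, lie at chrM:9459-9518 (plus strand), and the copy at chr1:24652141-24652200 (minus strand) has the substitution T9461C, in capitals.
ND3 on chrM: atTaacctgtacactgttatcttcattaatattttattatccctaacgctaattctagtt
ND3 copy on chr1: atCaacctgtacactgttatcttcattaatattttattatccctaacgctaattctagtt

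The 13 mRNAs fell into levels that went with these copies. Each mRNA was cut into all its windows of 150 bases, the length of a read, and windows with an identical nuclear copy were counted. For COX2, ATP8, ATP6, COX3, ND3 and ND4L, 98.5% to 100% of windows had one, and their mean level over 16 libraries was between 81.5 FPKM (fragments scaled to gene length and library total) for ND3 and 788 FPKM for COX2. ND1, ND2, ND5 and CYTB had 0% of windows copied and means of 24260, 15265, 7452 and 25893 FPKM. COX1, the catalytic subunit of cytochrome c oxidase, had 23.6% of windows copied and the highest mean, 40172 FPKM, and ND4 had 59.2% copied and 9851 FPKM. ND6, the one mRNA of the set coded on the other strand, had 0% of windows copied and yet the lowest mean, 5.09 FPKM. The copied mRNAs were also shorter, from 204 bases for ATP8 to 784 for COX3, where the others of that strand had 957 (ND1) to 1824 (ND5) and ND6 had 519. Reading frames overlap by 43 bases for ATP8 and ATP6, 1 for ATP6 and COX3, 7 for ND4L and ND4 and 14 for ND5 and ND6. How reads with several equal alignments were treated is not given in the sources used here. The part of copies, length or overlaps in these levels was not tested.

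**Figure D1:**
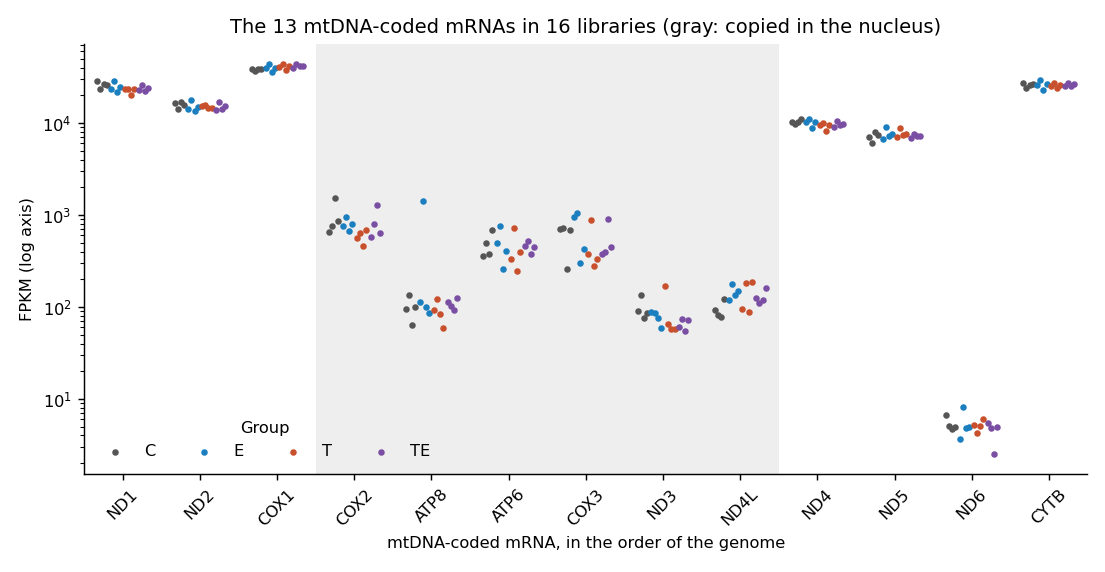
FPKM on a log axis of the 13 mtDNA-coded mRNAs in genome order, with 1 point per library, colored by group. The 6 mRNAs on gray, with nearly all windows copied in the nucleus, had means of 81.5 to 788 FPKM, 6 others had means of 7452 to 40172 FPKM, and ND6 had 5.09 FPKM.

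The copied mRNAs also varied most between libraries. On CPM scaled with TMM factors, used for all CPM values of members below, their coefficient of variation over the 16 libraries was 28.5% to 180.5%, with a median of 37.1%. For the 6 other mRNAs of the same strand it was 7.22% to 10.3%, and for ND6, with 0% of windows copied, it was 24.8%. The library that stood highest was E2 for ATP8, ATP6 and COX3, C3 for COX2, T1 for ND3 and T4 for ND4L. Over the 16 libraries, the median Pearson correlation of log2 CPM was 0.23 over 15 pairs of copied mRNAs and 0.71 over 15 pairs of the 6 others, a description of points that share depth and scaling. The copied mRNAs made up 0.524% to 1.30% of the mtDNA-coded counts of a library. COX1 made up 38.97% of these counts over all libraries, CYTB 18.6% and ND1 14.6%.

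**Figure D2:**
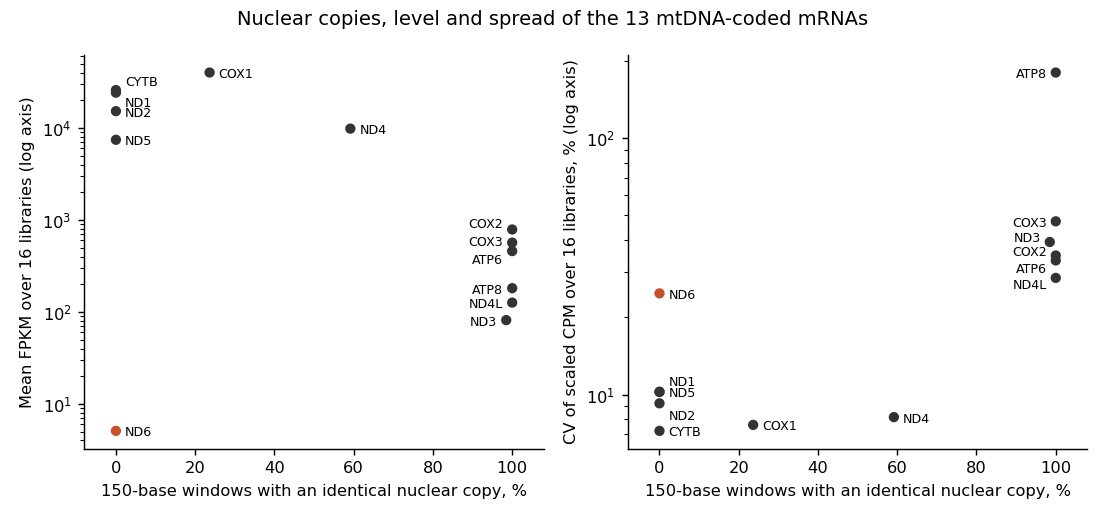
Percent of 150-base windows of each mtDNA-coded mRNA with an identical nuclear copy (horizontal axes) against mean FPKM (left, log axis) and the coefficient of variation of TMM-scaled CPM over 16 libraries (right). The 6 mRNAs near 100% had a variation of 28.5% to 180.5%, and ND6 (red) was low without copies.

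The share of a library taken by mtDNA-coded mRNAs was similar in the 4 groups. In percent of library counts, it was 16.4, 14.7, 16.3 and 16.2 in the C mice, 15.6, 18.2, 14.3 and 16.1 in the E mice, 15.7, 16.9, 14.5 and 15.96 in the T mice and 15.3, 16.97, 15.7 and 16.2 in the TE mice. The groups overlapped, with means of 15.9% ± 0.775 in C, 16.04% ± 1.62 in E, 15.8% ± 0.999 in T and 16.03% ± 0.733 in TE (SD, n = 4). Both the lowest and the highest library, E3 and E2, were trained mice without tumor. The mitoribosomal genes held 0.345% ± 0.0131 of counts in C, 0.330% ± 0.00225 in E, 0.324% ± 0.0124 in T and 0.332% ± 0.00833 in TE. The lowest value was 0.305% in T3, and C3, at 0.329%, was the one C library within the range of the E and T mice.

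**Figure D3:**
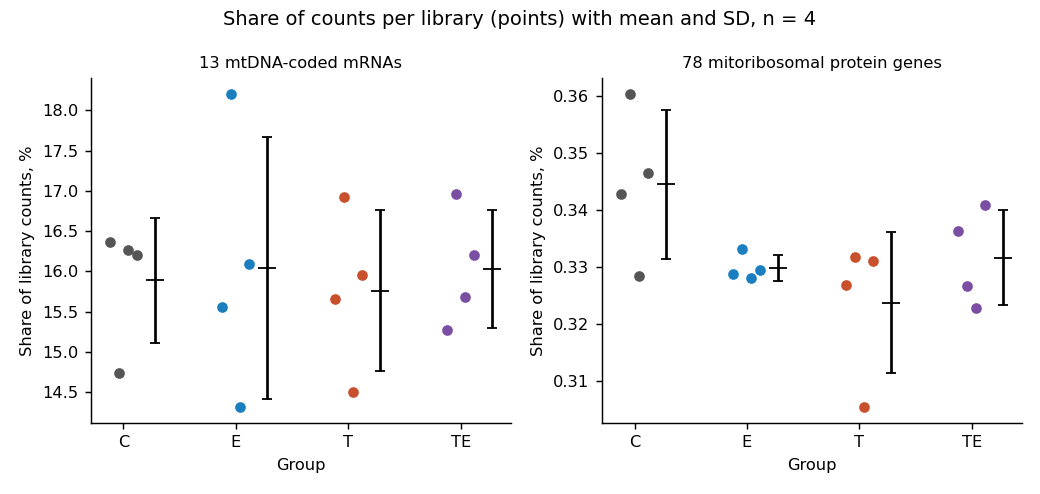
Share of library counts in percent for the 13 mtDNA-coded mRNAs (left) and the 78 mitoribosomal protein genes (right), with 1 point per library and bars for the mean and SD of 4 (axes do not start at 0). On the left all groups overlap, and on the right the C libraries other than C3 lie above every E and T library.

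Differential expression was tested with edgeR over all 14749 genes, and 0 of the 13 mtDNA-coded mRNAs had an adjusted p-value under 0.05 in any of the 7 contrasts, with edgeR or with DESeq2. The share of all genes that did with edgeR was 0.678% for T vs C, 0.0881% for E vs C, 0% for TE vs T and 0.231% for TE vs E. At an unadjusted p-value under 0.05, edgeR gave 1 mRNA higher and 1 lower in T vs C (all genes 8.23% and 5.96%), 2 higher and 0 lower in E vs C (8.51% and 5.67%), 0 and 0 in TE vs T (2.87% and 3.01%), and 0 and 1 in TE vs E (3.7% and 5.53%). Without E2, whose ATP8 level stood apart (below), E vs C gave 0 higher and 2 lower, with 12 of 13 estimates below 0 in place of 8, and TE vs E gave 1 higher and 0 lower, with 10 above 0 in place of 4. Without E3 the estimates moved the other way, with 9 above and 4 below 0 for E vs C and 2 and 11 for TE vs E. For TE vs T, 8 were above and 5 below 0, but 2 and 11 without T3, and 4 and 9 without TE2. For T vs C, 3 were above and 10 below 0, and 6 and 7 without C1 or without T3. By the unadjusted p-value, T vs C gave 0 higher and 0 lower without C3, 0 and 2 without C2, 2 and 0 without T3, 0 and 1 without T2 or without T4, and 1 and 2 without T1 or without E2. TE vs T gave 1 higher and 0 lower without C3, TE1 or TE4, and E vs C gave 1 and 0 without C3. Without C3, E1 and TE4 together, the numbers higher and lower were 0 and 0 for T vs C, 2 and 0 for E vs C, 1 and 0 for TE vs T, and 0 and 1 for TE vs E. For each of the 13, the values of the groups compared overlapped. The median log2 fold change of the 13 was -0.092 for T vs C, -0.025 for E vs C, 0.014 for TE vs T and -0.046 for TE vs E, beside -0.0012, 0.0033, 0.0014 and 0.0029 for all genes. When single libraries were left out, it was -0.12 to -0.012, -0.13 to 0.039, -0.037 to 0.055 and -0.082 to 0.079, so that its sign was not stable except for T vs C. Over the 6 mRNAs with 0% or part of their windows copied, without ND6, these medians were -0.021, -0.042, 0.013 and 0.016.

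For the abundant mRNAs the differences were small. COX1 was 61877, 55565, 58892 and 60224 CPM in the C mice and 65945, 69065, 56998 and 65148 CPM in the T mice, where all T libraries but T3 lay above the C libraries. The log2 fold change was 0.12 ± 0.0760 (SE), with a 95% interval of -0.040 to 0.28 and an adjusted p-value of 0.507. CYTB, the mtDNA-coded subunit of complex III, had a log2 fold change of -0.0034 for T vs C (95% interval -0.18 to 0.17) and -0.028 for E vs C (-0.20 to 0.14). ND5, a proton-pumping subunit of complex I, had 0.14 (-0.067 to 0.35) for T vs C, which was 0.066 without C2 and 0.074 without T2. ND1, another subunit of complex I, had -0.19 (-0.39 to 0.015, adjusted p = 0.398) for T vs C, and -0.12 without C1. ND2 had -0.10 (-0.30 to 0.10) for E vs C, with -0.20 without E2, -0.16 without C2, -0.060 without C1 and -0.047 without E3. For TE vs T these 5 mRNAs and ND4 had log2 fold changes from -0.12 for ND5 to 0.053 for ND1.

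The copied mRNAs gave the largest fold changes among the 13, with wide errors. ATP8 was 19.9, 26.9, 12.8 and 20.5 CPM in the C mice, 22.2, 285, 19.6 and 17.4 CPM in the E mice and 12.2 to 25.2 CPM in the T and TE mice. The groups overlapped and E2 alone stood apart, with 10448 counts against 442 to 1003 in the other 15 libraries. The log2 fold change of E vs C was 2.104 ± 0.685 (SE, adjusted p = 0.204), and without E2 it was -0.018. ATP6, whose reading frame overlaps that of ATP8, was 328, 511, 168 and 275 CPM in the E mice, where E2 was also the highest library.

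COX2 was 463, 506, 1031 and 579.8 CPM in the C mice, 405, 440.2, 309 and 480.0 CPM in the T mice and 388, 563, 910.4 and 430.5 CPM in the TE mice. C3 and TE3 stood above the rest, and the groups overlapped. The log2 fold change of T vs C was -0.66 ± 0.259 (adjusted p = 0.252), and without C3, E1 and TE4 it was -0.34. ND4L, a small subunit of complex I, was 28.3, 23.8, 22.8 and 36.1 CPM in the C mice, 34.6, 51.7, 37.9 and 44.3 CPM in the E mice and 29.98, 55.1, 25.6 and 56.3 CPM in the T mice, with overlap between all groups. Its log2 fold change was 0.60 ± 0.224 for E vs C (adjusted p = 0.246) and 0.59 ± 0.224 for T vs C (adjusted p = 0.233), comparisons that share the C mice. COX3, a subunit of cytochrome c oxidase, and ATP6 had -0.32 ± 0.443 and -0.14 ± 0.315 for T vs C, where COX3 ranged from -0.82 without T2 to -0.13 without T3. ATP6 was 0.082 without C4. ND3 had -0.45 ± 0.295 for TE vs T (0.13 without T1), and ND6 had -0.26 ± 0.261 for TE vs E (0.027 without E2).

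The mitoribosomal genes had lower levels, with a median of 21.3 FPKM and a range from 3.66 FPKM for Mrpl19 to 270.4 FPKM for Mrpl42. The median was 20.3 FPKM for Mrpl genes and 22.3 FPKM for Mrps genes. Mrps21 and Mrpl12, whose protein belongs to the stalk that recruits translation factors, followed Mrpl42 with 192 and 107.9 FPKM, and Mrps25 and Mrpl4 were lowest after Mrpl19 with 3.81 and 4.83 FPKM. The coefficient of variation over 16 libraries was 4.57% to 12.1%, with a median of 7.46%. Of the 78 genes, 14 had a 150-base window with an identical copy elsewhere, and 1, Mrpl23, had over 50% of its windows copied (72.0%). Exons of 60 overlap another annotated gene, of 57 on the opposite strand, and the strand setting of the counting is not given in the sources used here. Of the mitoribosomal genes named here, only Mrpl23, Mrpl42 and Mrps16 have no such neighbor on either strand.

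Some start regions of these genes hold motifs of factors known to act on genes of mitochondrial proteins. RefSeq promoters (GRCm38.p6), from 250 bases before to 50 bases after a start, were matched for 69 of the 78 genes, which have 75 promoters. The ETS motif CCGGAAG, of the family of GABP, was found on either strand in 34.7% of them and in 8.86% of all 32851 promoters. The NRF1 motif was found in 17.3% and 4.60%, and the YY1 motif in 9.33% and 0.986%. These are matches of letters, not binding sites, and the set of all promoters was not matched for base composition or expression. The promoters of Mrps22 (chr9:98601630-98601929, minus strand), Mrps16 (chr14:20393441-20393740, minus strand), Mrpl14 (chr17:45686099-45686398, plus strand) and Mrpl24 (chr3:87919294-87919593, plus strand) are shown because these genes had among the smallest p-values of their comparisons, with capitals for the ETS motif (in Mrps16 on the other strand) in Mrps22 and Mrps16 and the NRF1 motif in Mrpl14. None of the 3 motifs was found in the promoter of Mrpl24 or in the other promoter listed for Mrps16 (chr14:20393585-20393884, minus strand).
Mrps22: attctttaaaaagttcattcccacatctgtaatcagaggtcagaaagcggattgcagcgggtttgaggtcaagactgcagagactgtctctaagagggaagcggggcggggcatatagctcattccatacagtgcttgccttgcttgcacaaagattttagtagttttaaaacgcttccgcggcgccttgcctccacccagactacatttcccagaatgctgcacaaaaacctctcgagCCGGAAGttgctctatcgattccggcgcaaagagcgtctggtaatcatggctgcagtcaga
Mrps16: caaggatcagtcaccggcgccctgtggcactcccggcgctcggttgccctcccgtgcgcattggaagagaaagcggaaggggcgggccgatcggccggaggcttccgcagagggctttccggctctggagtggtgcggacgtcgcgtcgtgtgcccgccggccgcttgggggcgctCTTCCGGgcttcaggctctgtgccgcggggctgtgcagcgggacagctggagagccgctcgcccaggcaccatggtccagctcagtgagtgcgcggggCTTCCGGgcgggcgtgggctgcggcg
Mrpl14: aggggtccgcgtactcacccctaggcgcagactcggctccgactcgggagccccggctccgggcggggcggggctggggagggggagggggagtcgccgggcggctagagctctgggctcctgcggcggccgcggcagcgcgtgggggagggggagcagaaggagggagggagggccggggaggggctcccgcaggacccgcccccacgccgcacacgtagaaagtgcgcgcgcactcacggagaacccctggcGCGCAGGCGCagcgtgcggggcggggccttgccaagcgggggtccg
Mrpl24: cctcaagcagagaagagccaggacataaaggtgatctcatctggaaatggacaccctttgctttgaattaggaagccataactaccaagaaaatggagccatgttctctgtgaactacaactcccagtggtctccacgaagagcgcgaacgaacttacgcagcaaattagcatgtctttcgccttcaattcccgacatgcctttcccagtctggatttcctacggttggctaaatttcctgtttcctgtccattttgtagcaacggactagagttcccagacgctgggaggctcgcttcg

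In tumor-bearing against control muscle, 0 of the 78 mitoribosomal genes had an adjusted p-value under 0.05 with edgeR or DESeq2, where 0.678% of all genes did with edgeR. The estimates were small and mostly negative: 65 of 78 genes had a lower estimate in T than in C and 13 a higher one, beside 50.3% and 49.7% of all genes. The median log2 fold change was -0.076, with a range from -0.28 to 0.11 over the genes. Without T3 the median was -0.033, with 52 genes lower and 26 higher. At an unadjusted p-value under 0.05, 10 genes were lower and 0 higher, beside 5.96% and 8.23% of all genes. The number lower was 3 without C1, 5 without C2, 4 without T3, 18 without C3 and 16 without T1, and without C3, E1 and TE4 it was 16, with a median of -0.11. For 2 genes, Mrps22 and Mrpl4, every T value was below every C value and for 0 above, beside 2.83% and 4.03% of all genes. Neutrophil and erythroid markers were higher in T, and of the 10 skeletal muscle fiber markers 9 had a higher estimate in T, 4 at an unadjusted p-value under 0.05. Macrophage markers were 6 of 6 higher (median 0.71, 3 at an unadjusted p-value under 0.05), lymphoid markers 11 of 11 lower (median -4.18, 6 at an unadjusted p-value under 0.05) and Schwann cell markers 4 of 4 lower (median -0.65, 2 at an unadjusted p-value under 0.05). Their part in these values was not tested.

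Mrps22, a small-subunit protein with no bacterial counterpart, was 27.7, 23.2, 22.3 and 22.2 CPM in the C mice and 20.8, 20.3, 15.8 and 21.5 CPM in the T mice, with C1 high and T3 low. Its log2 fold change was -0.28 ± 0.0954 (SE, adjusted p = 0.182). Mrpl53, a large-subunit protein also particular to mitochondria, was 41.5, 41.6, 36.7 and 39.9 CPM in the C mice and 36.3, 36.8, 33.3 and 36.3 CPM in the T mice. The groups overlapped by C3 and T2, and the log2 fold change was -0.16 ± 0.0576 (adjusted p = 0.208). Mrpl1, a large-subunit protein with a bacterial counterpart, had -0.20 ± 0.0761 (adjusted p = 0.226).

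For exercise without tumor, 0 of the 78 genes had an adjusted p-value under 0.05 with edgeR or DESeq2, where 0.0881% of all genes did with edgeR. Estimates were lower in E than in C for 75 genes and higher for 3, beside 49.4% and 50.6% of all genes, and the median was -0.10 on the log2 scale. On log2(FPKM + 1), which scales to the library total, 69 were lower and 9 higher with a median of -0.063 (all genes 0.021), where T vs C had 72 lower, 6 higher and -0.093 (all genes -0.016). With TMM, the medians of Mrpl and Mrps genes were -0.11 and -0.10. At an unadjusted p-value under 0.05, 15 genes were lower and 0 higher, beside 5.67% and 8.51% of all genes, and the number lower was 7 without C1 and 7 without E3. For 11 genes every E value lay below every C value and for 0 above, beside 4.02% and 5.06% of all genes. Without C3, E1 and TE4 the median was -0.14 and 18 genes were lower at an unadjusted p-value under 0.05. The tendon and fibroblast markers summed to 925 to 1177 CPM in E and 597 to 809 CPM in C. Adipocyte markers were 6 of 6 higher (median 1.46, 4 at an unadjusted p-value under 0.05), with sums of 423 to 627 CPM in E and 399.6 to 540.2 CPM in C, and the part of both lists in this result was not tested.

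Mrpl24, a large-subunit protein conserved from bacteria, was 34.3, 36.5, 31.4 and 35.2 CPM in the C mice and 31.1, 27.8, 27.98 and 28.9 CPM in the E mice, with no overlap. Its log2 fold change was -0.25 ± 0.0720 (SE), with a 95% interval of -0.40 to -0.094 and an adjusted p-value of 0.162. Mrpl53 was 34.7, 34.6, 34.4 and 35.58 CPM in the E mice, below every C mouse, with -0.20 ± 0.0576 (adjusted p = 0.162). Mrpl2, whose protein lies near the site of peptide bond formation, was 69.3, 68.9, 66.1 and 70.8 CPM in the C mice and 64.0, 61.9, 54.4 and 58.95 CPM in the E mice, also without overlap, with -0.20 ± 0.0716 (adjusted p = 0.227). The genes with the highest levels, Mrpl42 and Mrps21, had -0.090 ± 0.0577 and -0.11 ± 0.0717, which were -0.055 without C1 for Mrpl42 and -0.054 without C2 for Mrps21.

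Within tumor-bearing mice, 51 of 78 genes had a higher estimate in TE than in T and 27 a lower one, beside 50.5% and 49.5% of all genes. The median log2 fold change was 0.022, and -0.015 to 0.046 when single libraries were left out. Without T3, 32 genes had a higher estimate and 46 a lower one. Of the 78, 0 had an adjusted p-value under 0.05 with edgeR or DESeq2, and 1 was higher and 0 lower at an unadjusted p-value under 0.05, beside 2.87% and 3.01% of all genes. These numbers were 3 and 0 without T1, 2 and 0 without TE3, 0 and 1 without T3 or without TE1, and 0 and 0 without T4, without TE4 or without C3, E1 and TE4. The gene higher was Mrps12, whose protein lies at the decoding site, with 13.8, 11.9, 10.1 and 9.89 CPM in the T mice and 13.7, 12.7, 13.04 and 14.8 CPM in the TE mice, which overlapped by T1. Its log2 fold change was 0.25 ± 0.108 (adjusted p = 0.843). Mrps16, a small-subunit protein conserved from bacteria, had 0.13 ± 0.0754, and Mrpl27, a large-subunit protein, -0.14 ± 0.0768, which was -0.090 without T1. For 0 of the 78 genes were the T and TE values free of overlap, beside 1.24% of all genes higher and 1.34% lower in TE. The slow fiber markers summed to 982 to 2764 CPM in T and 826 to 1159 CPM in TE, and were 7 of 7 lower (median -0.90, 7 at an unadjusted p-value under 0.05). Lymphoid markers were 11 of 11 higher (median 3.99, 10 at an unadjusted p-value under 0.05), with sums of 4.51 to 10.3 CPM in T and 5.05 to 118 CPM in TE, where TE4 was highest. Erythroid markers were 5 of 5 higher (median 0.27, 2 at that threshold), with sums of 464 to 516 CPM in T and 543 to 799 CPM in TE. Neutrophil markers were 5 of 5 lower (median -0.61, 2 at that threshold), of 8 in the list. The part of these lists was not tested.

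Between the trained groups, 63 of 78 genes had a higher estimate in TE than in E and 15 a lower one, beside 50.8% and 49.2% of all genes, and the median was 0.052 on the log2 scale. On log2(FPKM + 1), 41 were higher and 37 lower with a median of 0.0042, where that of all genes was -0.026. Of the 78, 0 had an adjusted p-value under 0.05 with edgeR or DESeq2 (all genes 0.231% with edgeR), and 4 were higher and 0 lower at an unadjusted p-value under 0.05, beside 3.7% and 5.53% of all genes. The number higher was 2 without TE3 and 1 without C3, E1 and TE4. For 7 genes every TE value lay above every E value and for 1, Mrpl40, below, beside 2.68% and 3.95% of all genes. Mrpl9, a large-subunit protein, was 49.1, 53.2, 43.6 and 48.99 CPM in the E mice and 57.2, 56.4, 54.6 and 54.4 CPM in the TE mice, with 0.19 ± 0.0677 (adjusted p = 0.356). Mrpl14, a large-subunit protein conserved from bacteria, was 83.7, 81.5, 83.1 and 85.4 CPM in the E mice and 87.8, 93.7, 96.4 and 95.2 CPM in the TE mice, with 0.16 ± 0.0667 (adjusted p = 0.456). Both genes separated the groups, and Mrps7 had 0.15 ± 0.0679. Tendon and fibroblast markers were 634 to 725 CPM in TE, below E, with 6 of 6 lower. Erythroid markers were 5 of 5 higher (median 1.17, 5 at an unadjusted p-value under 0.05), neutrophil markers 5 of 5 higher (median 2.56, 4 at an unadjusted p-value under 0.05), of 8 in the list, and Schwann cell markers 4 of 4 lower (median -0.56, 2 at an unadjusted p-value under 0.05). The skeletal muscle fiber markers summed to 123322 to 131328 CPM in TE and 114256 to 122121 CPM in E, with 7 of 10 higher and 3 higher at an unadjusted p-value under 0.05, and the part of these markers was not tested.

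**Figure D4:**
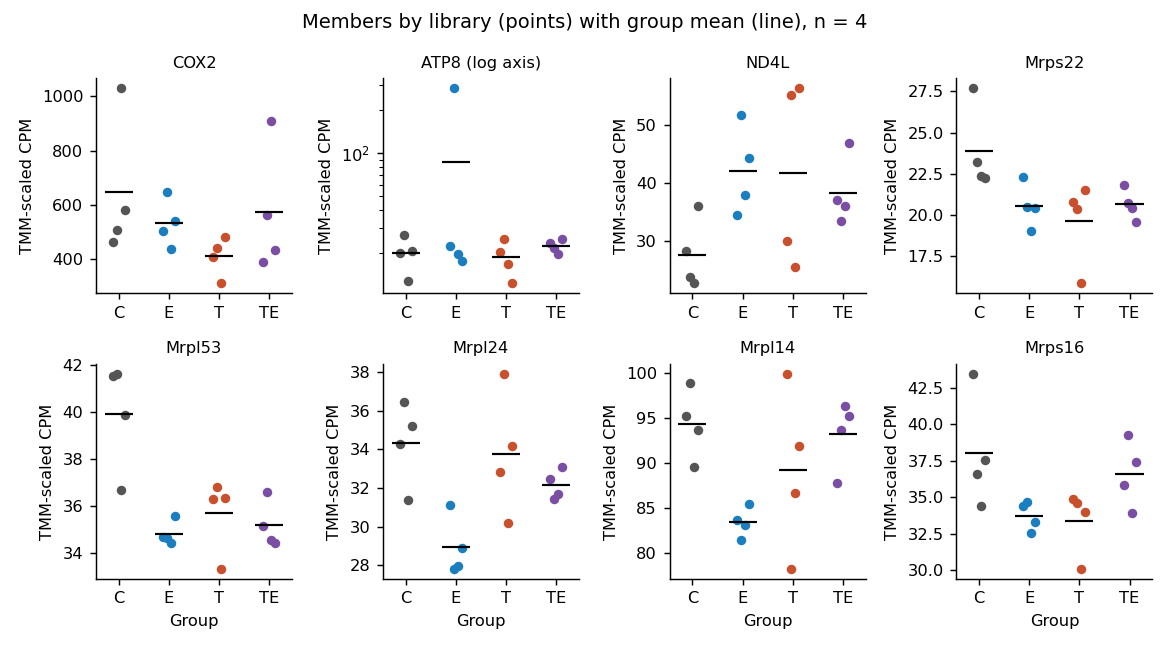
TMM-scaled CPM per library (points) and group means (lines) for 3 copied mtDNA-coded mRNAs and 5 mitoribosomal genes, with groups on the horizontal axis and a log axis for ATP8. ATP8 reached 285 CPM in E2 alone, and the C mice lay above the E mice for Mrpl53, Mrpl24 and Mrpl14.

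Whether training went with another difference in tumor-bearing mice than in the others was tested as the interaction, (TE - T) - (E - C). It was above 0 for 73 of 78 genes and below 0 for 5, beside 49.8% and 50.2% of all genes, with a median of 0.12 on the log2 scale. T vs C, E vs C and the interaction share the C mice, so their gene counts are not separate results. The 78 genes summed to 3562, 3551, 3224 and 3455 CPM in C, 3127 to 3286 CPM in E, 3019 to 3453 CPM in T and 3332 to 3348 CPM in TE. Nor are the genes independent, with a median Pearson correlation of log2 CPM of 0.37 over 3003 pairs. With edgeR or DESeq2, 0 genes had an adjusted p-value under 0.05 (all genes 0% with edgeR), and 8 were above 0 and 0 below at an unadjusted p-value under 0.05, beside 3.7% and 5.51% of all genes. The number above 0 was 2 without C1, 4 without C2, 5 without C4, 5 without E2, 4 without E3, 3 without T3, 4 without TE1, 3 without TE2, 18 without C3, 15 without T1, and 14 without C3, E1 and TE4. Mrps16 was 43.5, 36.6, 34.4 and 37.59 CPM in C, 34.4, 34.7, 32.5 and 33.3 CPM in E, 34.9, 34.6, 30.1 and 34.0 CPM in T and 35.8, 39.3, 33.9 and 37.4 CPM in TE. The 4 groups overlapped, with C1 highest and T3 lowest, and the interaction was 0.31 ± 0.107 (SE, adjusted p = 0.438). Mrpl14 had 0.24 ± 0.0943 and Mrps18c, a small-subunit protein, 0.29 ± 0.120. The interaction was below 0 for 6 of 6 tendon and fibroblast markers (median -1.38, 5 at an unadjusted p-value under 0.05) and above 0 for 11 of 11 lymphoid markers (median 4.99, 9 at that threshold), and their part was not tested.

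**Figure D5:**
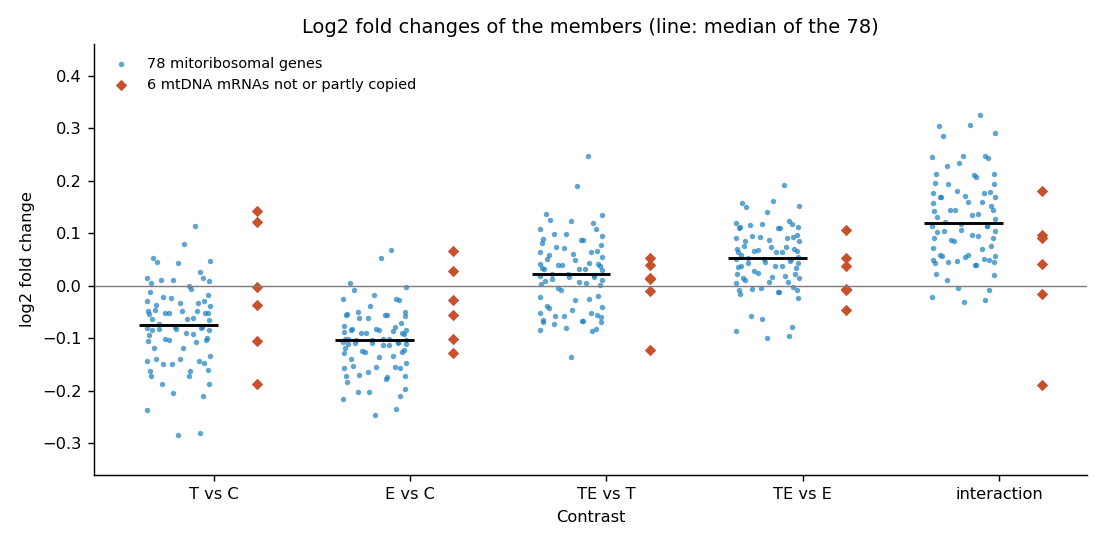
Log2 fold changes of the 78 mitoribosomal genes (points, line at the median) and of 6 mtDNA-coded mRNAs with 0% or part of their windows copied (diamonds) in 4 comparisons and the interaction. The mitoribosomal medians were -0.076, -0.10, 0.022, 0.052 and 0.12, and 0 of these genes had an adjusted p-value under 0.05.

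For the main effects, the mean over both trained or both tumor groups against the others, 0 members had an adjusted p-value under 0.05 with edgeR or DESeq2, beside 0.00678% of all genes for training and 1.36% for tumor with edgeR. The mitoribosomal median for training was -0.048, with 65 genes below 0 and 13 above (48.4% and 51.6% of all genes). It was -0.029 without T2, -0.029 without T1 and -0.069 without T3. At an unadjusted p-value under 0.05, 7 were below and 0 above 0 (4.8% and 5.95%), led by Mrpl24 (-0.16 ± 0.0508), Mrpl27 (-0.15 ± 0.0542) and Mrpl53 (-0.11 ± 0.0407). The number below 0 was 4 without C1, C2, T2 or TE3 and 12 without T3, and without C3, E1 and TE4 it was 8. For training, slow fiber markers were 7 of 7 lower (median -0.51, 4 at an unadjusted p-value under 0.05), tendon and fibroblast markers 6 of 6 higher (median 0.54, 5 at an unadjusted p-value under 0.05) and lymphoid markers 11 of 11 higher (median 1.63, 5 at an unadjusted p-value under 0.05), and their part was not tested. For tumor the median was -0.0059, with 47 below and 31 above 0 (49.8% and 50.2%), and without T3 31 were below and 47 above. The median was -0.025 to 0.011 when single libraries were left out. At an unadjusted p-value under 0.05, 1 was below and 2 were above 0 (6.81% and 7.41%), which were Mrpl40 (-0.12 ± 0.0528), Mrpl9 (0.12 ± 0.0478) and Mrps30 (0.11 ± 0.0485). Without C3, E1 and TE4 these numbers were 1 below and 0 above, with 54 estimates below 0. For tumor, skeletal muscle fiber markers were 10 of 10 higher (median 0.14, 6 at an unadjusted p-value under 0.05), macrophage markers 6 of 6 higher (median 0.53, 4 at that threshold) and Schwann cell markers 4 of 4 lower (median -0.60, 3 at that threshold), beside the neutrophil and erythroid markers. Tendon and fibroblast markers were 6 of 6 lower (median -0.37, 3 at that threshold, smallest adjusted p = 0.024 with edgeR). Endothelium markers were 2 higher and 2 lower, with 1 lower at an adjusted p-value of 0.0023 with edgeR. The part of all these markers was not tested. Without C3 the numbers of mitoribosomal genes were 6 below and 0 above, and without single other libraries at most 4 below and 3 above.

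Other genes of mitochondrial gene expression were read from 10 lists, and 0 of their genes had an adjusted p-value under 0.05 with edgeR in any contrast. The nearest was Esrrg, a nuclear receptor of oxidative metabolism, which was 16.04, 15.1, 20.8 and 18.1 CPM in C and 29.9, 23.6, 28.9 and 22.6 CPM in T. The C and T values did not overlap, and the log2 fold change was 0.58 ± 0.147 (adjusted p = 0.0776). In TE, Esrrg was 22.6, 17.5, 20.5 and 14.9 CPM, below every T value and overlapping C. Ppargc1a, a coactivator known for mitochondrial biogenesis, was 32.5, 28.8, 34.0 and 27.6 CPM in C, 36.1, 44.2, 38.8 and 39.9 CPM in E and 40.2, 41.7, 37.0 and 41.7 CPM in T. Every E and T value was above every C value, with 0.37 ± 0.105 for E vs C (adjusted p = 0.153) and 0.39 ± 0.105 for T vs C (adjusted p = 0.1003). In TE, Ppargc1a was 43.7, 44.8, 48.9 and 32.8 CPM, where TE4 lay below C3. Of the 10 biogenesis regulators, 8 had a higher estimate in T than in C, beside 49.7% of all genes, with a median of 0.13.

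Polrmt, the mitochondrial RNA polymerase, had a log2 fold change of 0.013 ± 0.0967 for T vs C and -0.096 ± 0.0967 for E vs C. Tfam, which packs mtDNA and starts its transcription, had -0.077 ± 0.0698 and -0.11 ± 0.0697. Lrpprc and Slirp, whose proteins together stabilize mtDNA-coded mRNAs, had 0.086 ± 0.0687 and -0.094 ± 0.105 for T vs C. The gene with the smallest p-value of the transcription list was Mterf3, with -0.18 ± 0.0724 for T vs C (adjusted p = 0.251). In E vs C the genes with the smallest p-values of their lists were Supv3l1, a helicase of mitochondrial RNA decay (-0.26 ± 0.0854), Mtg1, a GTPase of mitoribosome assembly (-0.27 ± 0.0855), Aurkaip1, a mitoribosomal protein outside the naming rule (-0.23 ± 0.0647), and Ddit3, a transcription factor of the stress response (-0.52 ± 0.142). In TE vs E they were Tars2, the mitochondrial threonyl-tRNA synthetase (0.22 ± 0.0741), Mtrf1, of the release factor family (0.20 ± 0.0800), and Tk2, the mitochondrial thymidine kinase (-0.31 ± 0.128).

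Of 71 nuclear-coded subunits of complexes I, III, IV and V, 61 had a lower estimate in T than in C (all genes 50.3%), 71 in E than in C (49.4%), and 63 a higher one in TE than in E (50.8%). Their medians were -0.065, -0.12 and 0.065, and that of the interaction was 0.14. At an unadjusted p-value under 0.05, 8 were lower in T vs C and 13 in E vs C, beside 5.96% and 5.67% of all genes. Cox6c, a subunit of cytochrome c oxidase, had the smallest p-value, with -0.24 ± 0.0794 for E vs C (adjusted p = 0.214). Of the 23 genes of mitoribosome assembly and rRNA modification, 20 had a lower estimate in E than in C (all genes 49.4%, median -0.12), as had 16 of 20 mitochondrial aminoacyl-tRNA synthetases (median -0.088).

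Among 10180 genes with a mean of at least 1 FPKM, the 5 whose log2 CPM was most like that of the summed mtDNA-coded mRNAs over the 16 libraries were Coq9 (Pearson r = 0.86), Rabl6 (0.83), Isca1 (0.82), Msrb1 (0.78) and Ptcd3 (0.77). Coq9 acts in coenzyme Q synthesis and Isca1 in the assembly of iron-sulfur clusters, and the protein of Ptcd3 belongs to the mitoribosomal small subunit. The libraries share their scaling, and these values are a description only.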

How the data were processed

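Gastrocnemius RNA of 16 mice was sequenced from poly(A)-selected libraries. The authors trimmed reads with fastp 0.20.1, aligned them to GRCm39 with HISAT2 2.1.0, counted with HTSeq 0.11.2 (per the submitters' processing notes) and deposited raw counts per gene. FPKM values, deposited by the authors beside the counts, scale each gene by its length and the library total. The annotation release, the strand setting and the treatment of multiply aligned reads are not given in the sources used here. Groups came from the labels.

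Counts were tested with edgeR 4.0.16 (R 4.3.3), using filterByExpr, TMM normalization and quasi-likelihood fits with 1 coefficient per group and 7 contrasts. P-values are two-sided and adjusted by Benjamini-Hochberg over the 14749 genes. Shares and marker sums use library totals. Library totals were 35628211 to 37635741, and 3 counts were 0.0797 to 0.0842 CPM, a limit of counting error only. Alternatives were DESeq2 1.42.0, other scalings and filters, a replicate block and leaving out each library. On log2 FPKM only differences of group means were taken, without a test. Scripts were tested on simulated data. Nuclear copies were searched with BLAST+ 2.17.0.

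The members and gene lists were chosen with earlier results of these data known. Named genes were the 13 mtDNA-coded mRNAs, the mitoribosomal genes with the 3 smallest p-values per contrast and the 3 highest and 3 lowest mean FPKM, the gene with the smallest p-value of each list, and Polrmt, Tfam, Lrpprc, Slirp and Ppargc1a. Mrpl23 was named after its value was seen.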

Additional observations from a re-analysis of the deposited data

Results flagged for a closer look

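In 11 of 140 groups of 4 values, 1 library stood apart from the other 3 by Dixon's criterion, and chance gives about 1 in 20 groups. The share of counts from mtDNA-coded mRNAs was 14.7% in C2 and 16.2% to 16.4% in the other C mice. ND1 was 19139 CPM in T3 and 22721 to 23443 CPM in the other T mice. Of the copied mRNAs, ATP8 was 285 CPM in E2 and 17.4 to 22.2 CPM in the other E mice. COX3 was 199 CPM in C3 and 535 to 567 CPM in the other C mice, and in the TE group it was 738 CPM in TE3 and 290.0 to 341 CPM in the others. ND3 was 62.4 CPM in T1 and 19.6 to 23.3 CPM in the other T mice.

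The mitoribosomal values that stood apart were all low. Mrpl53 was 33.3 CPM in T3 and 36.3 to 36.8 CPM in the other T mice. Mrpl1 was 27.6 CPM in TE4 and 30.6 to 31.1 CPM in the other TE mice, and TE4 had the most counts of lymphoid markers. Mrps12 was 11.7 CPM in C3 and 13.98 to 14.1 CPM in the other C mice. Mrps30 was 24.4 CPM in C3 and 28.2 to 28.6 CPM in the other C mice. Mrpl42 was 179 CPM in TE2 and 192 to 194 CPM in the other TE mice.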

How the results depend on the processing

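At an adjusted p-value under 0.05, 0 members were called under every alternative run, in each of the 7 contrasts. At an unadjusted p-value under 0.05, the mtDNA-coded mRNAs gave 2 for T vs C, 2 for E vs C and 1 each for TE vs E, tumor, training and the interaction, and the mitoribosomal genes gave 10 for T vs C, 15 for E vs C, 1 for TE vs T, 4 for TE vs E, 3 for tumor, 7 for training and 8 for the interaction, by construction a weaker criterion. Of 951 values of single genes under alternatives, 6 changed sign, each when 1 library was left out, and the cause was not tested. Over these fits the log2 fold change ranged from -0.018 to 2.44 for ATP8 in E vs C (lowest without E2), from -0.53 to 0.082 for ATP6 in T vs C (highest without C4, and 0.054 without T3), from -0.61 to 0.13 for ND3 in TE vs T (highest without T1), from -0.40 to 0.027 for ND6 in TE vs E (highest without E2) and from -0.027 to 0.11 for CYTB in TE vs E (lowest without E3). The mitoribosomal median ranged from -0.10 to -0.033 for T vs C, -0.14 to -0.088 for E vs C, 0.043 to 0.066 for TE vs E and 0.090 to 0.16 for the interaction. With the replicate number as a block, 0 members were called, and the unadjusted counts of mitoribosomal genes were 11 lower for T vs C and 15 lower for E vs C. The count for T vs C was 6 lower with only the groups compared, and that for training 4 lower with no filter on low counts. Of 24 pairs of same-numbered samples, 5 had a correlation of deviations over 0.1 (range -0.24 to 0.21). The main fits did not pair the mice, and with so few libraries per group these correlations cannot exclude a pairing. The fits without C3, E1 and TE4, the medians over 6 mRNAs and the counts by direction were added after seeing the data.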
